A study of Bos taurus with 15 samples.

Results

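Levels of 9 genes of the IL6 receptor family and its JAK-STAT pathway were examined in bovine blastocysts, labelled as day 7. The genes were taken by their symbols from the table of 10832 genes left after filtering on low read counts, and all 9 were found there. They comprised the receptor chains IL6R, IL6ST and LIFR, the kinases JAK1, JAK2 and TYK2, the transcription factors STAT3 and STAT5B and the feedback inhibitor SOCS3. In vitro produced embryos had been cultured without oviductal extracellular vesicles (Co, control), with fresh vesicles (FeEV treatment) or with vesicles that had been frozen (FoEV treatment). The vesicles (oEVs) came from oviductal fluid of slaughterhouse cows judged to be postovulatory from their ovaries. According to the paper, vesicles of the same oviducts were divided between the FeEV and FoEV treatments. Each of the 15 libraries, 5 per treatment, was made from 1 ng of total RNA of a pool of 8 to 14 embryos, and the pools with the best RNA had been selected for sequencing.

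Cytokines of the IL6 family bind a receptor chain of their own, such as IL6R for IL6, and signal through the shared chain IL6ST, also called gp130. LIF uses a pair of LIFR and IL6ST. JAK kinases attached to these chains phosphorylate STAT proteins, which enter the nucleus, and SOCS3, itself a STAT3 target, binds the receptor complex and dampens the signal. In mouse embryonic stem cells the route from LIF to STAT3 is known to maintain self-renewal.

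Total counts per library ran from 2136713 to 4058887. All FoEV libraries, from 3392613 counts upward, were deeper than all Co libraries, which reached at most 2977004, so that treatment and depth cannot be told apart in the comparison of FoEV treatment vs. Co. Levels are given as CPM, counts divided by the TMM-scaled library total and multiplied by 1000000. They were compared between treatments within a gene only, since no transcript lengths were used. In the blastocyst lists used as a check, 12 of 12 trophectoderm, 8 of 9 hypoblast and 7 of 9 epiblast markers passed the filter. Of markers of other cells, 3 of 10 for cumulus or granulosa cells, 3 of 8 for oviduct epithelium and 0 of 5 for blood passed it, with summed levels of 30.7 to 51.6, 20.7 to 46.3 and 0.743 to 7.42 CPM over the libraries, and HBB was at 0 in all of them. The p-values cover the spread between pools, since the labels do not say whether pools of a treatment came from separate fertilization rounds.

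In each of the 3 comparisons all 9 genes stayed above the adjusted p threshold of 0.05 (edgeR quasi-likelihood F test with Benjamini-Hochberg adjustment over 10832 genes). In the comparison of FoEV treatment vs. Co, IL6ST was 28% lower and JAK1 17.9% lower, both at an unadjusted p under 0.05, while the other 7 genes had unadjusted p-values of 0.326 or more. In FeEV treatment vs. Co no gene of the 9 had an unadjusted p under 0.05, and between the oEV treatments IL6ST did. The share of all genes called was 0.00923% in FoEV treatment vs. Co, 0% in FeEV treatment vs. Co and 0% in FoEV vs. FeEV treatment. By the likelihood ratio test with robust dispersion 0 of 9 genes were called, beside 2.87%, 0.0554% and 0.286% of all genes in the same order, and by the Wald test of DESeq2 0 of 9, beside 1.33%, 0.00923% and 0.0277%. At an unadjusted p under 0.05 the 2 of 9 genes in FoEV treatment vs. Co stood beside 15.1% of all genes, the 0 of 9 in FeEV treatment vs. Co beside 4.15%, and the 1 of 9 in FoEV vs. FeEV treatment beside 8.52%. No gene of the 9 had libraries of a pair of treatments that did not overlap, which held for 2.6%, 0.951% and 1.5% of all genes in the same order of comparisons.

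IL6ST encodes gp130, the signalling chain that all cytokines of the family share. Its level in Co was 118.5, 164, 122, 173 and 136 CPM in replicates 1 to 5. In FeEV-treated embryos the 5 libraries had 117, 141, 116, 158 and 121 CPM, and in FoEV-treated embryos 69.5, 117, 121, 108 and 99.5 CPM. The highest FoEV library (121 CPM) lay above the lowest Co library, whereas the other 4 FoEV libraries lay below every Co library. The mean was 143 ± 24.8 CPM in Co, 131 ± 18.6 CPM in FeEV and 103 ± 20.5 CPM in FoEV (SD, n = 5 each). The log2 fold change of FoEV treatment vs. Co was -0.47 (SE 0.14, 95% confidence interval -0.77 to -0.18), with an unadjusted p of 0.00311 and an adjusted p of 0.148 (edgeR quasi-likelihood F test). By p-value IL6ST ranked 224 of 10832 genes in that comparison.

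Between the oEV treatments IL6ST was lower in FoEV by 0.34 on the log2 scale (SE 0.14, unadjusted p = 0.0251, adjusted p = 0.538, edgeR quasi-likelihood F test). This unadjusted p was above 0.05 without FeEV replicate 2, without FeEV replicate 4, without FoEV replicate 1 and with the log2 of the total counts in the fit. FeEV and Co differed by -0.13 (95% confidence interval -0.43 to 0.16). The order of the means was thus Co, FeEV and FoEV, and the neighbours Co and FeEV did not differ beyond the spread of their libraries. With the log2 of the total counts added to the fit, an alternative chosen after seeing the data, the difference of FoEV treatment vs. Co was -0.14 (unadjusted p = 0.438, adjusted p = 0.819, edgeR quasi-likelihood F test). With the counts of every library thinned to the same total it was -0.50 (unadjusted p = 0.00436, edgeR quasi-likelihood F test). In the fit of all genes with at least 1 count IL6ST had an adjusted p of 0.00815 (edgeR quasi-likelihood F test), where 0.679% of the genes tested were called, and with the replicate number of the titles as a block an adjusted p of 0.0433, where 0.526% were called.

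IL6R, the chain that binds IL6 itself, had 72.9, 83.3, 65.8, 74.7 and 62.0 CPM in the Co libraries. In FeEV the values were 67.7, 63.5, 56.9, 90.6 and 48.6 CPM, and in FoEV 62.3, 74.9, 69.2, 83.1 and 60.8 CPM. The 3 treatments overlapped over most of their ranges, and the lowest and the highest of all 15 values were both in FeEV. Means were 71.7 ± 8.29, 65.5 ± 15.8 and 70.1 ± 9.24 CPM (SD, n = 5). The log2 fold change of FoEV treatment vs. Co was -0.04, with a 95% confidence interval from -0.32 to 0.25. In the fit with total counts it was 0.43 (unadjusted p = 0.00684, adjusted p = 0.342, edgeR quasi-likelihood F test), in the opposite direction.

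LIFR, the partner of IL6ST in the receptor for LIF, was among the genes with the widest spread. Its counts per library ran from 22 to 77. Co libraries had 8.02, 21.6, 15.2, 26.1 and 11.9 CPM, FeEV libraries 22.1, 23.8, 11.6, 29.1 and 6.70 CPM, and FoEV libraries 17.8, 19.4, 14.6, 15.0 and 7.36 CPM. Each treatment held at least 1 library under 9 CPM, and the highest level was 4.35 times the lowest. Means were 16.6 ± 7.29 CPM in Co, 18.6 ± 9.23 in FeEV and 14.8 ± 4.64 in FoEV. At this spread the interval of FoEV treatment vs. Co, -0.97 to 0.66 on the log2 scale, included differences in both directions. The value was -0.15, and 0.84 with total counts in the fit (unadjusted p = 0.0771, edgeR quasi-likelihood F test), outside that interval. In the RefSeq annotation LIFR has OSMR, another chain of the family, as a neighbour, and OSMR had 26 counts in all 15 libraries together.

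**Figure D1:**
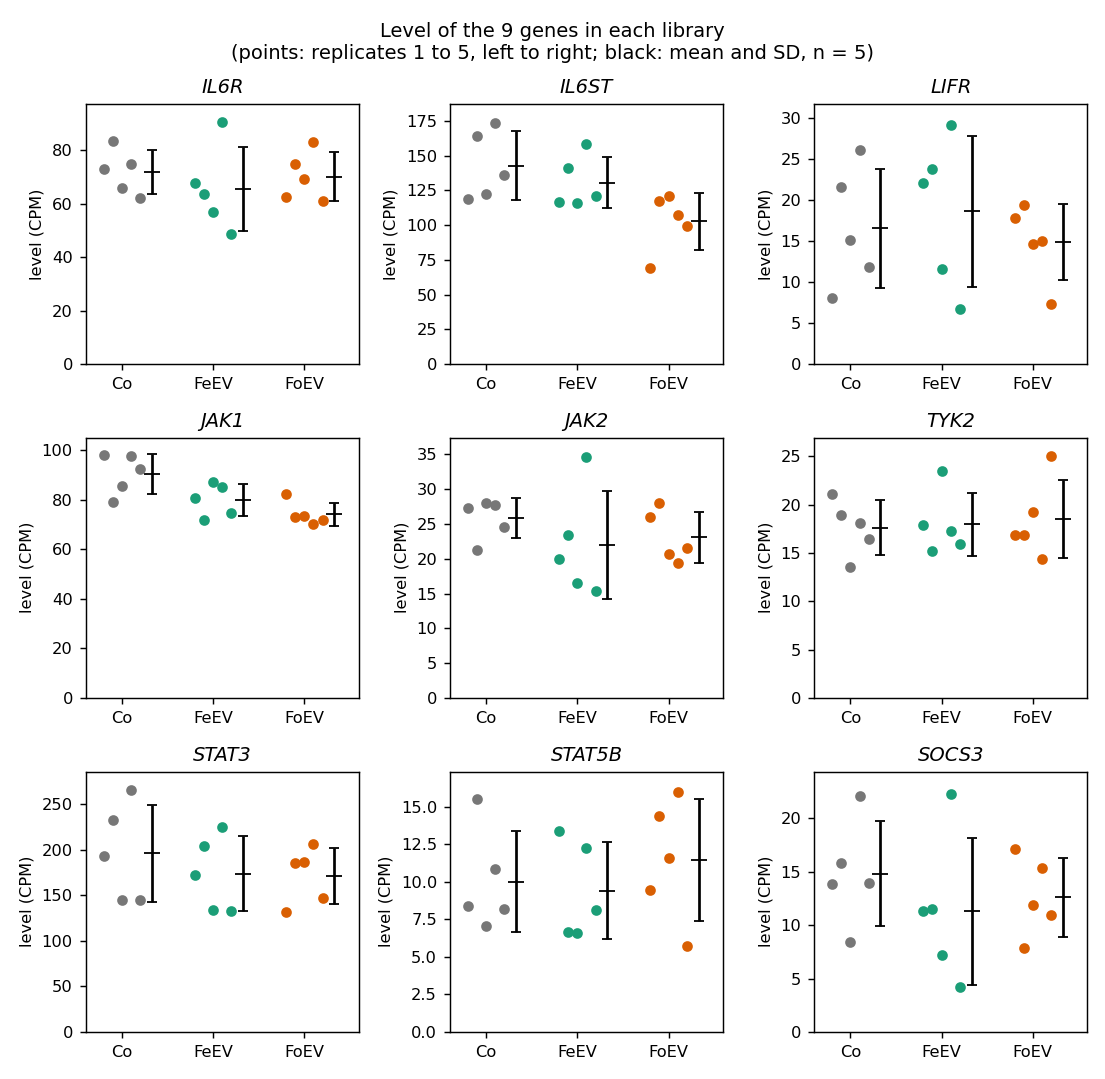
Level in CPM of the 9 genes in each library, on vertical axes that start at 0, for Co (grey), FeEV (green) and FoEV (orange). Points are replicates 1 to 5 from left to right, black bars the mean and SD (n = 5). For IL6ST 4 of 5 FoEV points and for JAK1 4 of 5 FoEV points lie below all Co points, and the 7 other genes overlap more widely.

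JAK1, the kinase most needed for gp130 signalling, was the least variable of the 9 genes. The Co libraries had 98.1, 78.9, 85.5, 97.5 and 92.3 CPM, the FeEV libraries 80.8, 72.0, 87.3, 85.2 and 74.6 CPM, and the FoEV libraries 82.2, 72.9, 73.3, 70.1 and 72.0 CPM. FoEV replicates 2 to 5 lay within 70.1 to 73.3 CPM and below all Co libraries, and FoEV replicate 1 lay above Co replicate 2. Means were 90.5 ± 8.20 in Co, 80.0 ± 6.57 in FeEV and 74.1 ± 4.69 CPM in FoEV (SD, n = 5). The log2 fold change of FoEV treatment vs. Co was -0.29 (SE 0.09, 95% confidence interval -0.48 to -0.09), with an unadjusted p of 0.00555 and an adjusted p of 0.171 (edgeR quasi-likelihood F test). In the fit with total counts it was -0.24 (unadjusted p = 0.0967). FeEV stood between the other treatments and differed beyond an unadjusted p of 0.05 neither from Co (-0.18, unadjusted p = 0.0709, adjusted p = 1.00) nor from FoEV (-0.11 for FoEV vs. FeEV treatment, unadjusted p = 0.259, adjusted p = 0.742, edgeR quasi-likelihood F test for both).

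JAK2 and TYK2 are the other kinases that attach to the receptor chains. JAK2 had 21.3 to 28.1 CPM in Co, 15.4 to 34.6 CPM in FeEV and 19.4 to 28 CPM in FoEV. FeEV replicate 4, with 34.6 CPM, was the highest and the other FeEV libraries had 19.97, 23.4, 16.6 and 15.4 CPM, so that 3 of 5 FeEV libraries lay below all Co libraries. The log2 fold change of FeEV treatment vs. Co was -0.26 (95% confidence interval -0.64 to 0.13), and without FeEV replicate 4 it was -0.46 (unadjusted p = 0.0111). TYK2 had means of 17.6 ± 2.84, 18.0 ± 3.25 and 18.5 ± 4.07 CPM in Co, FeEV and FoEV, within 13.5 to 25.1 CPM in all libraries. Its differences between treatments, from 0.03 to 0.08 on the log2 scale, were the closest to 0 among the 9 genes over the 3 comparisons together, and the interval for FoEV treatment vs. Co was -0.29 to 0.44.

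STAT3 carries the signal of the family to the nucleus. Co libraries had 193, 232, 145, 265 and 145 CPM. In FeEV they had 172, 204, 134, 225 and 133 CPM, and in FoEV 132, 186, 187, 206 and 147 CPM. Each treatment held libraries of 147 CPM or less beside libraries above 200 CPM, so that the spread within treatments was larger than the difference of their means, 196 ± 53.3, 173 ± 41.1 and 171 ± 30.7 CPM. The log2 fold change was -0.20 in FoEV treatment vs. Co (95% confidence interval -0.60 to 0.21) and -0.18 in FeEV treatment vs. Co (-0.59 to 0.23). In the fit with total counts the value for FoEV treatment vs. Co was 0.35 (unadjusted p = 0.0928), in the opposite direction.

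STAT5B, a STAT best known from growth hormone and prolactin signalling, was counted with 18 to 57 reads per library. Means were 10.01 ± 3.37 CPM in Co, 9.41 ± 3.22 in FeEV and 11.4 ± 4.07 in FoEV, and the lowest library (5.72 CPM) and the highest (16.03 CPM) were both in FoEV. The log2 fold change of FoEV treatment vs. Co was 0.18 (95% confidence interval -0.40 to 0.76). It was -0.03 with thinned counts, 0.52 with the library number as replicate block and 0.63 with total counts in the fit, and ran from 0.04 without FoEV replicate 4 to 0.40 without Co replicate 2 over the fits without a library. STAT5A lies between STAT5B and STAT3 in the RefSeq annotation and is nearly identical to STAT5B in large stretches of its sequence. It had 113 counts in all libraries together against 487 for STAT5B, so reads that fit both could move the value of either gene.

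SOCS3, which switches gp130 signalling off, had the widest range of the 9 genes. Co libraries had 13.9, 15.9, 8.38, 22.1 and 14.0 CPM, FeEV libraries 11.3, 11.5, 7.19, 22.3 and 4.19 CPM, and FoEV libraries 17.1, 7.82, 11.8, 15.4 and 10.9 CPM. The highest level, in FeEV replicate 4, was 5.33 times the lowest, in FeEV replicate 5, from 49 and 15 counts. Means were 14.8 ± 4.92, 11.3 ± 6.87 and 12.6 ± 3.69 CPM in Co, FeEV and FoEV, and no comparison had an unadjusted p under 0.05 (smallest 0.232 for FeEV treatment vs. Co, edgeR quasi-likelihood F test). Without FeEV replicate 4 the value of that comparison was -0.80 (unadjusted p = 0.0171, adjusted p = 1.00, edgeR quasi-likelihood F test) in place of -0.43, and it ran from -0.80 to -0.21 over the fits without a library. The interval with all libraries, -1.18 to 0.31 on the log2 scale, was among the widest of the 9 genes. In the fit with total counts SOCS3 was 0.92 higher in FoEV than in Co (unadjusted p = 0.0124, adjusted p = 0.385, edgeR quasi-likelihood F test), against -0.22 without that term.

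**Figure D2:**
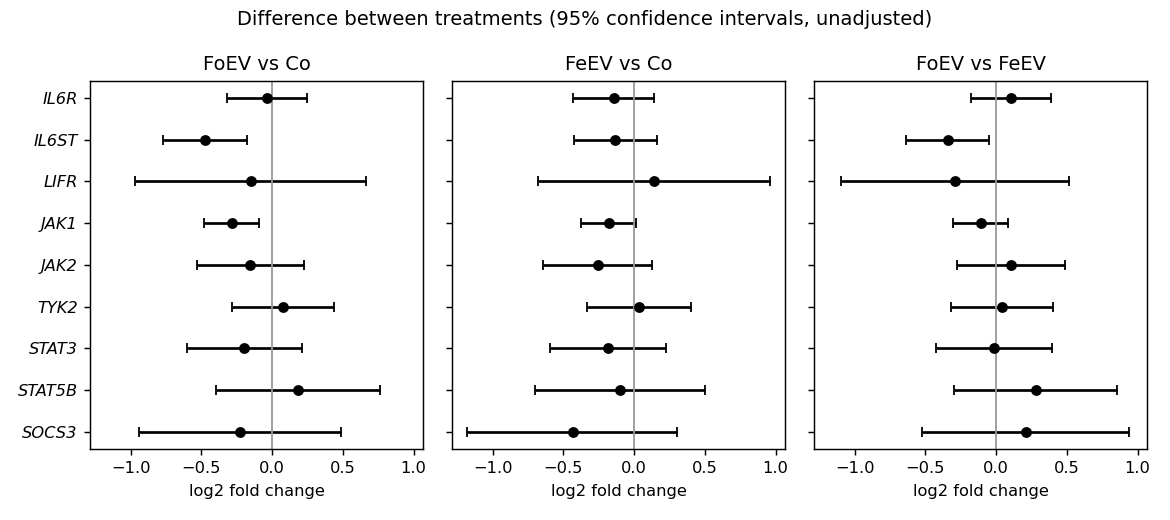
Log2 fold change (horizontal axis) of the 9 genes in FoEV vs Co, FeEV vs Co and FoEV vs FeEV, as points with unadjusted 95% confidence intervals from the edgeR fit over all genes. The intervals of IL6ST and JAK1 in FoEV vs Co and of IL6ST in FoEV vs FeEV lie below 0, and the others include 0.

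Over the 9 genes the median log2 fold change was -0.15 in FoEV treatment vs. Co, -0.14 in FeEV treatment vs. Co and 0.04 in FoEV vs. FeEV treatment, beside 0.01, 0.00388 and 0.00918 over all genes. Levels were lower in FoEV than in Co for 7 of 9 genes (47.7% of all genes), lower in FeEV than in Co for 7 of 9 (49% of all genes) and lower in FoEV than in FeEV for 4 of 9 (48.2% of all genes). With total counts in the fit these values turned in FoEV treatment vs. Co, where 7 of 9 genes were higher in FoEV with a median of 0.35, beside 49.6% of all genes lower and a median of 0.0030 over all genes. With thinned counts 8 of 9 genes were lower in FoEV than in Co, with a median of -0.19. The comparisons with Co share the Co libraries, so their values are not independent of each other. In bulk RNA, fewer cells that express a gene and less RNA per cell cannot be told apart.

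The 9 genes differed in how far libraries of a treatment varied beyond counting error. The biological coefficient of variation was 0.0932 for JAK1, lower than for all but 3.74% of the genes, and 0.361 for LIFR and 0.333 for SOCS3, at percentiles 97.0 and 95.9, with a median of 0.148 over all genes. The variance of the STAT3 counts was 29.2 times the Poisson variance and that of JAK1 1.62 times. Counting error was thus a small part of the spread of STAT3 and a large part of that of JAK1.

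Deviations from the treatment means were then compared between the genes over the 15 libraries. Of the 36 pairs, 26 had a positive and 10 a negative Pearson's r, with a median of 0.36. An adjusted permutation p under 0.05 was reached by 3 pairs, and all of them were positive. For IL6R and STAT3 r was 0.82 (permutation p = 0.00033, adjusted 0.0119) and Spearman's rho 0.79 (p = 0.00093). For IL6ST and STAT3 r was 0.78 (p = 0.00133, adjusted 0.0239) and rho 0.82 (p = 0.00199). For IL6R and STAT5B r was 0.73 (p = 0.00258, adjusted 0.031) and rho 0.78 (p = 0.00271). Without the 2 libraries farthest from the median these values of r were 0.82, 0.75 and 0.86. The same share over pairs of other genes was not counted, so whether these counts are unusual cannot be said. Within treatments IL6R, STAT3 and IL6ST also each moved with the total counts (r = -0.86, -0.70 and -0.59). The part of depth and of lineage markers in these pairs was not tested.

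**Figure D3:**
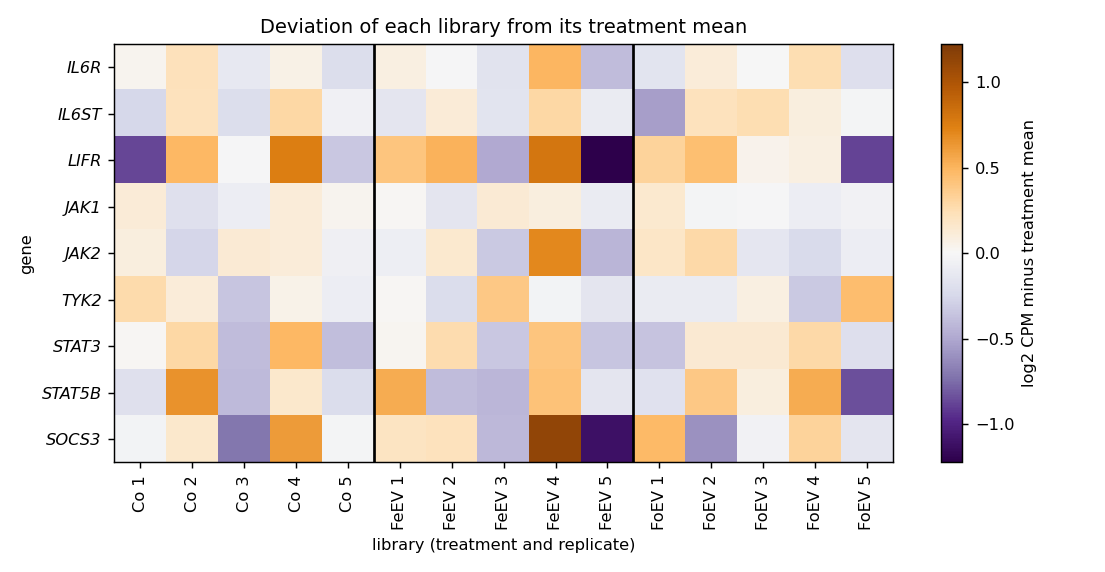
Deviation of each library from the mean of its treatment, in log2 CPM, for the 9 genes (rows) in the 15 libraries (columns), with black lines between the treatments. Orange is above and purple below the treatment mean. FeEV replicate 4 is above the mean for 8 of the 9 genes, LIFR and SOCS3 deviate most, and JAK1 least.

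Levels of several of the genes moved within treatments with the depth of the libraries and with lineage markers, and 63 such relations were computed (9 genes against total counts and 3 marker lists, each list weighted in 2 ways). An adjusted permutation p under 0.05 was reached by 19 of them. IL6R was lower in deeper libraries (r = -0.86, permutation p = 0.00214, adjusted 0.0157, rho = -0.64, p = 0.0259), and r was -0.60 without the 2 libraries farthest from the median. For SOCS3 r was -0.81 (p = 0.00734, adjusted 0.0243, rho = -0.61, p = 0.0351), falling to -0.46 without those libraries. STAT3 had an r of -0.70 (p = 0.00021, adjusted 0.00454, rho = -0.83, p = 0.00022) and IL6ST of -0.59 (p = 0.00192, adjusted 0.0157, rho = -0.82, p = 0.00071), with -0.77 for both without the 2 farthest libraries. The part of depth in the differences between treatments was not tested beyond the fit with total counts.

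The hypoblast, or primitive endoderm, is the inner layer of the blastocyst that lines its cavity, and the trophectoderm is the outer layer. The summed level of the hypoblast list consisted to 86.9% of FN1, which encodes fibronectin. Against this sum STAT3 had an r of 0.94 (permutation p = 3e-05, adjusted 0.00189, rho = 0.88, p = 7e-05), and IL6ST of 0.88 (p = 0.00036, adjusted 0.00454, rho = 0.88, p = 1e-04), with 0.94 and 0.84 without the 2 libraries farthest from the median. Among 10824 genes outside the list, none had a higher r than STAT3, and 15 genes were at or above IL6ST, itself included. The summed trophectoderm list, 41.6% KRT8 and 28.9% KRT18, had an r of -0.90 with STAT3 (p = 0.00031, adjusted 0.00454, rho = -0.83, p = 0.00098). With IL6R, IL6ST and LIFR its r was -0.76 each (adjusted permutation p = 0.016, 0.0157 and 0.022). The summed epiblast list had an r of 0.78 with STAT3 (permutation p = 0.00227, adjusted 0.0157) and of 0.70 with IL6R (p = 0.00249, adjusted 0.0157). The other genes did not reach an adjusted p of 0.05 with it, IL6ST among them (r = 0.54, p = 0.0738, adjusted 0.16). The relation of STAT3 was thus not particular to the hypoblast list.

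The relation with the hypoblast list depended on how the markers were weighted, in alternatives chosen after seeing the data. With FN1 left out of the sum r was 0.89 for STAT3 (permutation p = 0.00016, adjusted 0.00288, rho = 0.90, p = 2e-05) and 0.79 for IL6ST (p = 0.00035, adjusted 0.00315, rho = 0.84, p = 0.00038), and 0.86 and 0.78 without the 2 farthest libraries. With equal weights, as the mean log2 CPM of the 8 hypoblast markers that passed the filter, it was 0.62 for STAT3 (permutation p = 0.0264, adjusted 0.095, rho = 0.56, p = 0.0463) and 0.62 for IL6ST (p = 0.0341, adjusted 0.0971, rho = 0.56, p = 0.0491), and 0.44 and 0.34 without the 2 farthest libraries, adjusted over these 18 further relations. With equal weights over the 7 markers other than FN1 r was 0.51 for STAT3 (permutation p = 0.0822, adjusted 0.167, rho = 0.40, p = 0.218) and 0.53 for IL6ST (p = 0.0760, adjusted 0.16, rho = 0.43, p = 0.165), and 0.28 and 0.19 without the 2 farthest libraries. For IL6R r was 0.73 with the full hypoblast sum (permutation p = 0.00285, adjusted 0.0159). With equal weights without FN1 it was 0.35 (permutation p = 0.163, adjusted 0.257). For STAT3 the single hypoblast markers gave r of 0.93 with FN1, 0.80 with PDGFRA, 0.71 with GATA6, 0.71 with COL4A1 and 0.53 with HNF4A, but 0.13 with RSPO3, -0.33 with LAMA1 and -0.34 with GATA4. With the epiblast list at equal weights r was 0.76 for STAT3 (permutation p = 0.00303, adjusted 0.0159) and 0.62 for IL6R (p = 0.0062, adjusted 0.023). Without the 2 farthest libraries these were 0.72 and 0.58. The trophectoderm relation was still past an adjusted p of 0.05 with equal weights, at -0.79 for STAT3 (p = 0.00425, adjusted 0.0178, rho = -0.70, p = 0.0137) and -0.88 for LIFR (p = 0.00026, adjusted 0.00454, rho = -0.89, p = 0.00054), and r was -0.76 and -0.84 without the 2 farthest libraries. IL6R (r = -0.76, permutation p = 0.00366, adjusted 0.0165) and IL6ST (-0.67, p = 0.00703, adjusted 0.0243) were past it too, with -0.78 and -0.72 without those libraries. The single trophectoderm markers differed here too. For STAT3 r ran from -0.87 with KRT8 to 0.43 with TEAD4, with -0.33 for CDX2, -0.08 for GATA3 and 0.27 for TFAP2C. For LIFR it ran from -0.83 with TFAP2A to 0.55 with TFAP2C. All these values share the libraries and their depth. The summed hypoblast list itself had an r of -0.61 with total counts (p = 0.00577, adjusted 0.00865, rho = -0.81, p = 0.0009) and of -0.86 with the trophectoderm list (p = 0.00062, adjusted 0.00372, rho = -0.74, p = 0.00428), with -0.62 and -0.84 without the 2 farthest libraries. These 2 were among 6 relations computed between the lists and the total counts.

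**Figure D4:**
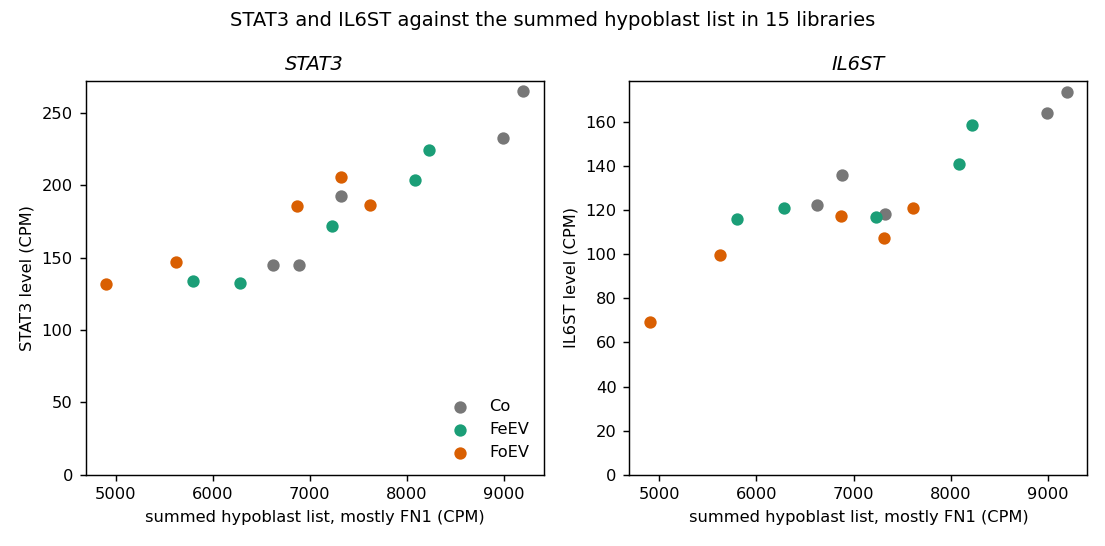
Level of STAT3 (left) and IL6ST (right) in CPM against the summed level of the hypoblast list in CPM, of which FN1 makes up 86.9%, for 15 libraries in Co (grey), FeEV (green) and FoEV (orange). The 3 libraries with the highest sums have the 3 highest levels of both genes, and the FoEV library with the lowest sum has the lowest level of both genes.

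Between treatments the summed hypoblast list was lower by 0.28 in log2 CPM in FoEV than in Co (exact permutation test, two-sided, p = 0.127), from 6624 to 9195 CPM in Co and 4904 to 7617 CPM in FoEV. The trophectoderm list was 0.29 higher (exact permutation p = 0.0635), from 8579 to 11871 CPM in Co and 10920 to 14680 CPM in FoEV, and the epiblast list differed by -0.04 (exact permutation p = 0.706). Of the 8 hypoblast markers that passed the filter 6 were lower and 2 higher in FoEV, and the 2 at an unadjusted p under 0.05 were RSPO3 (log2 fold change -0.76, unadjusted p = 0.00458) and FN1 (-0.29, unadjusted p = 0.0496, edgeR quasi-likelihood F test for both). Of the 12 trophectoderm markers 11 were higher, 4 of them at an unadjusted p under 0.05 (KRT18, KRT8, GATA2 and GATA3), with the lowest p for KRT18 (0.55, unadjusted p = 0.000347, adjusted p = 0.0818, edgeR quasi-likelihood F test). Of the 7 epiblast markers 5 were lower, with NANOG alone at an unadjusted p under 0.05 (-0.84, unadjusted p = 0.00641, edgeR quasi-likelihood F test). The same threshold was passed in FoEV treatment vs. Co by 15.1% of the 10832 filtered genes, 886 of them higher and 745 lower in FoEV. Whether the marker counts exceed these shares was not tested. NANOG and KRT18 had been picked by the study from these libraries, so their values are not independent evidence of a direction. The part of the marker lists in the lower level of IL6ST was not tested.

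The genes whose log2 levels over the 15 libraries were most like a member were taken among 8617 genes of at least 10 CPM on average. For IL6ST these were PPP6R3 (r = 0.95), RAB30 (0.93) and CBFA2T2 (0.93), and for LIFR they were ZFAND5 (0.92), CTNNA1 (0.91) and LMBRD1 (0.90). STAT3 was followed most closely by SPIC (0.92), DLGAP4 (0.90) and FN1 (0.89). For SOCS3 the values were lower, at 0.85 for MVP, 0.82 for KLF4 and 0.81 for NDRG1.

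Of the ligands of the family, IL6 alone passed the filter on low counts. It had 16.8, 21.9, 19.3, 12.4 and 9.03 CPM in Co, 12.2, 20.4, 12.2, 15.0 and 4.75 CPM in FeEV and 22.0, 11.1, 14.6, 19.4 and 7.91 CPM in FoEV. The treatments overlapped, with an unadjusted p of 0.334 or more in each comparison (edgeR quasi-likelihood F test). LIF had 15 counts in the 15 libraries together, at most 4 in 1 library, and CNTF, CTF1, CLCF1, IL11 and IL27 had between 2 and 103. OSM was at 0 in all libraries, which allows a share of up to 6.29e-06% of the counts, a limit for counting error only. IFNT2, an interferon tau gene of the ruminant trophectoderm, had 144 counts, up to 41 in 1 library.

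Among the other receptor chains, 5 of 23 passed the filter. They were IL11RA, the chain for IL11, the interferon receptor chains IFNAR1 and IFNGR1, and IL10RB and IL13RA1. Their log2 fold changes in FoEV treatment vs. Co ran from -0.02 for IFNAR1 to 0.27 for IFNGR1, with no unadjusted p under 0.05. IL11RA had 262 counts in all libraries together and a log2 fold change of 0.27 (SE 0.32) in that comparison. LEPR, EPOR and IL7R had 4 or 5 counts in all libraries together. STAT2 and IRF9, which act in interferon signalling, passed the filter, while JAK3, STAT4, STAT5A and STAT6 had 42 to 152 counts and did not. STAT2 and IRF9 had no unadjusted p under 0.05 in any comparison.

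In the whole pathway list of 94 further genes, 58 passed the filter, 34 were listed only in the unfiltered table and 2 were not found. No gene of the 58 had an adjusted p under 0.05 in any comparison. At an unadjusted p under 0.05 there were 11 of 58 genes in FoEV treatment vs. Co, or 19%, beside 15.1% of all genes in either direction. In FeEV treatment vs. Co there were 5 of 58 (8.62%, beside 4.15% of all genes) and in FoEV vs. FeEV treatment 2 of 58 (3.45%, beside 8.52%). The 11 and the 5 genes were all lower in the embryos with oEVs, a direction seen only afterwards, and 6.88% and 2.32% of all genes were lower at that threshold. The median over the 58 genes was -0.01 in FoEV treatment vs. Co, beside 0.01 over all genes. Of the 11 genes, 3 were inhibitors, 5 adaptors or members of the MAPK and PI3K branch and 3 known targets of STAT3.

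The inhibitors among them were SOCS4, SOCS5 and SOCS6, which belong to the SOCS family but act mainly on other receptors than gp130. SOCS6 had 73.4 ± 6.58 CPM in FoEV against 94.8 ± 5.86 CPM in Co, with no overlap (at most 81.0 in FoEV and at least 88.2 in Co), a log2 fold change of -0.37 (SE 0.09, unadjusted p = 0.000441, adjusted p = 0.0918, edgeR quasi-likelihood F test). PIK3R1, the regulatory subunit of PI3 kinase, was lower by 0.28 (adjusted p = 0.192) and STAM, an adaptor that binds JAK kinases, by 0.26 (adjusted p = 0.229, edgeR quasi-likelihood F test for both). MCL1, an anti-apoptotic target of STAT3, had 213, 226, 240, 204 and 230 CPM in FoEV and 261, 261, 263, 267 and 288 CPM in Co, with no overlap (log2 fold change -0.27, SE 0.07, adjusted p = 0.131, edgeR quasi-likelihood F test). SOCS6, MCL1 and FOS had been picked by the study from these libraries, so their values are not independent evidence of a direction.

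**Figure D5:**
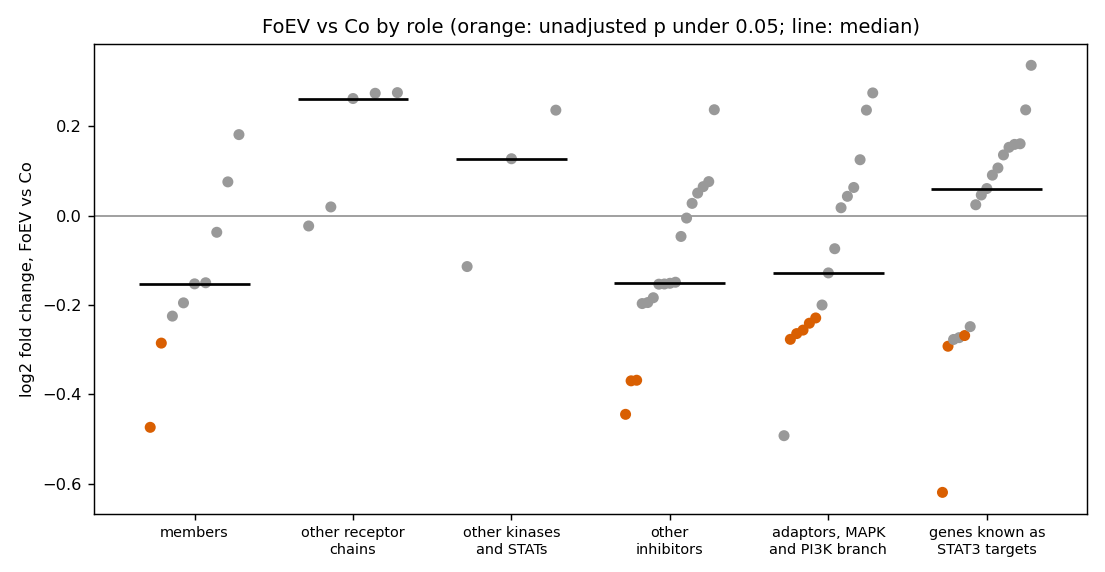
Log2 fold change of FoEV vs Co (vertical axis) for the 9 genes and the filtered genes of the pathway list by role, ligands left out. Orange points have an unadjusted p under 0.05, and black lines mark the median of each role. All orange points lie below 0, 2 among the 9 genes and 11 in the pathway list.

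In FeEV treatment vs. Co the lowest p-values of the list were those of FOS, JUNB, PIK3R1 and STAM2. FOS and JUNB encode AP-1 factors of the immediate early response. FOS had 39.3, 30.5, 28.2, 27.8 and 16.8 CPM in FeEV and 60.5, 27.7, 46.1, 46.6 and 66.1 CPM in Co, so that Co replicate 2 lay within the FeEV range and the other Co libraries above it (log2 fold change -0.79, SE 0.24). JUNB differed by -0.60, PIK3R1 by -0.28 and STAM2 by -0.25, all 4 genes with an adjusted p of 1.00 (edgeR quasi-likelihood F test). Between the oEV treatments GRB2, an adaptor to the MAPK branch, was 0.33 higher in FoEV (unadjusted p = 0.0115, adjusted p = 0.496), and MCL1 was 0.16 lower (unadjusted p = 0.0431, adjusted p = 0.572, edgeR quasi-likelihood F test). Neither gene had overlapping libraries, which held for 1.5% of all genes. GRB2 had 57.5 to 92.5 CPM in FoEV (mean 66.5 ± 14.7) and 48.9 to 56.1 CPM in FeEV. MCL1 had at most 239.98 CPM in FoEV and at least 241.4 CPM in FeEV. The pluripotency factors KLF4 and TFCP2L1, STAT3 targets in embryonic stem cells, had log2 fold changes of 0.05 and 0.02 in FoEV treatment vs. Co, with SE of 0.21 and 0.09.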

How the data were processed

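Pooled bovine embryos gave total RNA that was sequenced with a stranded low-input kit. The authors deposited raw read counts per gene, without normalization, in a table of 34773 genes and in a filtered table of 10832 genes, whose counts were equal in both. The study's methods name QuasR Qcount and, with its NCBI annotation, the assembly ARS-UCD1.2, whereas the submitters' processing notes list Trim Galore 0.4.3.1, HISAT2 2.1.0 and featureCounts 1.6.3. The strand setting of the counting is not given in the sources used here, so reads of overlapping genes on opposite strands cannot be told apart. The labels give 7 days of culture with oEVs, the study's text 8 days.

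Symbols were joined to the gene identifiers with a RefSeq table of another assembly (10709 of 10832 genes matched). From it only names and neighbours were used. The 9 genes, the pathway list and the marker lists were chosen with earlier results of these data known. Named beside the 9 genes were, per comparison, up to 4 genes of the pathway list in each direction with the lowest p among those under 0.05, and the 3 genes most like IL6ST, LIFR, STAT3 and SOCS3. Values of ligands, of MCL1 and FOS in each library and of KLF4, TFCP2L1 and the further receptor chains, STATs and inhibitors were given outside that rule, after they had been seen.

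Treatments were compared in edgeR 4.0.16 (R 4.3.3) with TMM scaling and the quasi-likelihood F test, in 1 robust fit of 15 libraries with treatment as factor and Benjamini-Hochberg adjustment over all filtered genes. Scripts were tested on simulated data. Alternatives were the robust dispersion of the study's methods with a likelihood ratio test, DESeq2 1.42.0, its size factors, other filters, 2-group fits, replicate blocks and leaving out each library. Added after seeing the data were thinned counts, total counts as a covariate, equal marker weights and the hypoblast list without FN1. Log2 CPM used a prior count of 2. Correlations used 100000.0 permutations within treatments, marker sums exact permutation tests over 252 assignments (Python 3.11.15, numpy 2.4.6, scipy 1.17.1, pandas 2.3.3, matplotlib 3.10.9). Libraries of a treatment differed by more than counting noise. Totals per library ran from 2136713 to 4058887 counts.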

Additional observations from a re-analysis of the deposited data

Results flagged for a closer look

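In 27 groups of 5 libraries (9 genes in 3 treatments) 1 library stood apart from the others of its treatment by Dixon's test. It was FoEV replicate 1 for JAK1, with 82.2 CPM beside 70.1 to 73.3 CPM in the other FoEV libraries, a gap of 0.737 of the range. Chance flags about 1 in 20 groups. Without this library the log2 fold change of JAK1 in FoEV treatment vs. Co was -0.33, and its FoEV and Co libraries did not overlap. The library left out was the only FoEV library above any Co library for JAK1. Over all genes, 2.6% had no overlap with all libraries, and this share was not counted without FoEV replicate 1. FoEV replicate 1 was also the library with the most counts (4058887).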

How the results depend on the processing

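The number of genes called depended on the test. In FoEV treatment vs. Co it was 1, and 311 with the robust dispersion, 144 with DESeq2, 173 with all genes that had a count, 5 with the 2 groups alone, 57 with the title number as replicate block, 12 with the library number as replicate block, 0 with total counts as a covariate, and 0 to 58 when a library was left out (58 without FoEV replicate 2, 14 without FoEV replicate 3). In FeEV treatment vs. Co it was 0, and 6, 1 and 13 under the first 3 of these, and 0 to 1 with a library left out. In FoEV vs. FeEV treatment it was 0, and 31, 3 and 22 under the same 3, 1 with the library number as block, and 0 to 1 with a library left out.

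Of the 9 genes, 1 was called in FoEV treatment vs. Co with all genes that had a count and 1 with the title number as block, IL6ST both times (adjusted p = 0.00815 and 0.0433, edgeR quasi-likelihood F test, over adjusted p-values from 0.00815 to 0.819 in 10 settings). None was called in the other settings run. The unadjusted p of IL6ST was under 0.05 in 15 of 15 fits without a library and in 9 of 10 other settings, and that of JAK1 likewise, the exception for both being total counts as a covariate. With that covariate 2 genes still had an unadjusted p under 0.05 in FoEV treatment vs. Co, IL6R and SOCS3, both higher, and 4 genes in FoEV vs. FeEV treatment against 1 (IL6R, JAK2, STAT3 and SOCS3, all higher). Genes at an unadjusted p under 0.05 in FeEV treatment vs. Co numbered 1 with the robust dispersion (JAK2) and 0 to 3 with a library left out (IL6R, JAK2 and SOCS3 without FeEV replicate 4), and in FoEV vs. FeEV treatment 0 to 1. The share of all genes at that unadjusted threshold was not taken in these alternative fits, so whether these counts are unusual cannot be said. Genes without overlap in FoEV treatment vs. Co numbered 0 to 1 with a library left out. The share of all genes without overlap was 2.6% with all libraries and was not counted with a library left out.

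Of 675 refitted log2 fold changes, 638 kept direction and side of the threshold, 2 passed it and 35 turned direction. With total counts as a covariate, FoEV treatment vs. Co turned to 0.43 for IL6R, 0.84 for LIFR, 0.31 for JAK2, 0.35 for STAT3 and 0.92 for SOCS3, and FoEV vs. FeEV treatment to 0.59 for LIFR and 0.44 for STAT3. The depth term rests on the spread within treatments, and no FoEV library was as shallow as a Co library. Within treatments r with total counts was -0.65 for both LIFR and JAK2 (adjusted permutation p = 0.0772 and 0.202). Without the 2 farthest libraries r was -0.34 and 0.23. Thinned counts turned STAT5B in FoEV treatment vs. Co to -0.0289. The library number as replicate block turned IL6R in FoEV treatment vs. Co to 0.12, STAT5B in FeEV treatment vs. Co to 0.13 and STAT3 in FoEV vs. FeEV treatment to 0.0506, where the robust dispersion gave 0.00358 and the title block 0.00507. Leaving out a library gave -0.10 to 0.0229 for IL6R and -0.32 to 0.0628 for LIFR in FoEV treatment vs. Co, -0.0616 to 0.37 for LIFR and -0.28 to 0.12 for STAT5B in FeEV treatment vs. Co, -0.00451 to 0.31 for JAK2, -0.10 to 0.10 for STAT3 and -0.0178 to 0.57 for SOCS3 in FoEV vs. FeEV treatment, and for TYK2 -0.0576 to 0.15, -0.0853 to 0.11 and -0.0901 to 0.16 in the 3 comparisons. The cause was not tested.

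Whether equal replicate numbers in the titles mark paired pools could not be decided. Fresh and frozen oEVs came from the same oviducts, but the labels do not say which libraries share a preparation. FeEV and FoEV libraries may thus not be independent of each other. In FoEV treatment vs. Co 1 of 5 same-numbered pairs had a correlation of deviations over 0.1, and 2 of 10 libraries correlated best with their own number, against 3 of 5 pairs and 5 and 4 of 10 libraries in the other comparisons. The mean r of same-numbered pairs was 0.03 in FoEV treatment vs. Co, 0.14 in FeEV treatment vs. Co and 0.19 in FoEV vs. FeEV treatment. For other pairs it was -0.01, -0.03 and -0.05. Depth limits the genes of few counts most, STAT5B, SOCS3 and LIFR, with 15 to 77 counts per library.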
